A study of Mus musculus with 21 samples.

Results

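Gene expression of 8 genes used to mark dendritic cells (Flt3, Zbtb46, Batf3, Xcr1, Clec9a, Itgae, Cd209a and Dpp4) was followed in macrophages sorted from mouse kidneys. The genes were chosen by name and not by their values, and each was the only line of the count table with its symbol, so that they made up 8 of 34236 gene names. RNA-seq was available for 21 libraries of live CD45+F4/80+CD64+ cells from male C57BL/6J mice aged 24 weeks. CD11chiMϕ (3 Sham and 4 RAS libraries) and CD11cloMϕ (3 Sham and 4 RAS), which the study describes as monocyte-derived, were separated by surface CD11c and CD11b from kidney-resident macrophages (KRM; 4 Sham and 3 RAS). RAS (renal artery stenosis) mice had their right renal artery narrowed by surgery with a cuff, and Sham mice were operated on but received none; no group carried an altered gene. The libraries represent 4 weeks of RAS. The labels give a flow sort time of 5 hours, and lymphocytes, red cells and granulocytes were left out by a gate on their surface markers; dendritic cells are not named among the lineages of that gate. None of the 8 genes encodes a protein used for sorting. Nothing in the labels says that libraries of a group came from separate mice, so p-values measure only the spread between these libraries.

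Dendritic cells take up antigen and present it to T cells, and in tissues such as kidney they are hard to separate from macrophages, because both lineages use CD11c, MHC class II and, in part, F4/80 and CD64. Conventional dendritic cells grow from bone marrow precursors that need the receptor Flt3, and they switch on the transcription factor Zbtb46; the cross-presenting cDC1 branch needs Batf3 and carries Xcr1, Clec9a and often Itgae (CD103), whereas the cDC2 branch is read from other lectins, and Cd209a marks monocyte-derived and cDC2-like cells. None of these genes is found in dendritic cells alone: Zbtb46 is also used by endothelium, Itgae and Dpp4 by T cells, and Dpp4 by the brush border of the proximal tubule. In bulk samples, a lower level from fewer cells of a type and from less RNA per cell cannot be told apart.

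Promoter sequences of Flt3, Zbtb46 and Cd209a are shown because these were the members that differed between RAS and Sham KRM. RefSeq (GRCm38.p6) gave a window of 300 bases, 250 before and 50 after the start site, for 7 of the 8 members; Itgae had no entry. Each is written 5′ to 3′ on the gene's strand, with motif matches in capitals. The Flt3 window lies at chr5:147400440-147400739, minus strand, over the start of the gene. The Zbtb46 window lies at chr2:181424339-181424638, minus strand, inside the span that GENCODE gives the gene (chr2:181387762-181459426). The Cd209a window lies at chr8:3748935-3749234, minus strand, over the start of the gene.
Flt3: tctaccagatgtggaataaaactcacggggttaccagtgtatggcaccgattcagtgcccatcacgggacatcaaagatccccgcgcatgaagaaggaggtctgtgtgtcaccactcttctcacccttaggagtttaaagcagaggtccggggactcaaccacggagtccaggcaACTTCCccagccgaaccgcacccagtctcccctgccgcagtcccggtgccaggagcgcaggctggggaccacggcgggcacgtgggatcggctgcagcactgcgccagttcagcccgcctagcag
Zbtb46: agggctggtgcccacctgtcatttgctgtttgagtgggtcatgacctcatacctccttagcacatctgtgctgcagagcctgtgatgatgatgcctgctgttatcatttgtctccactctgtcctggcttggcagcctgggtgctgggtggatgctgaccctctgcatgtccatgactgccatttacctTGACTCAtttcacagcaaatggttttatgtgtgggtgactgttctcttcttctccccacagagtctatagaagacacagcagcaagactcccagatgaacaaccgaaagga
Cd209a: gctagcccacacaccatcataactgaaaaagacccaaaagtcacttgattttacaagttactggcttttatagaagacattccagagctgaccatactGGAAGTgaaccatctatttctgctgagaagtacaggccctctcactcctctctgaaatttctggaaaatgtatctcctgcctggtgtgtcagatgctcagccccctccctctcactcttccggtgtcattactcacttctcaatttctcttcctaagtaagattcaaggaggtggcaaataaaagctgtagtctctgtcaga
Both strands were searched for TGANTCA, the site of AP-1 and BATF proteins, for GGAAGT, a site of PU.1 and other ETS factors, and for an IRF site made of a pair of GAAA runs with NN between them; no match overlapped another. Flt3 held GGAAGT on the opposite strand from -75 to -70, Zbtb46 held TGANTCA from -61 to -55, and Cd209a held GGAAGT from -152 to -147. Positions were counted from the start site of each window. For Zbtb46 this site is not the 5′ end of the GENCODE span, which on the minus strand is at 181459426. Of 32851 promoter windows, 7.81% held TGANTCA, 23.8% held GGAAGT and 3.44% held the IRF site. GGAAGT was also present before Xcr1, Batf3 and Dpp4, the IRF site before Dpp4, and none of the motifs was in the Clec9a window.

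Library totals ran from 6891177 to 18592427 counts. The sorted cells held macrophage RNA in every library: the summed level of 8 macrophage genes, among them Adgre1 (F4/80) and Fcgr1 (CD64), ran from 1753 to 9201 CPM (counts-per-million, the counts of a gene as a rate of the library's total). Some libraries stood apart in ways that touch the members. CD11chiMϕ Sham replicate 3 held 17433 CPM of 11 proximal tubule genes against 312 and 264 in the other libraries of its group, and the lowest macrophage sum. Replicate 3 was also highest in proximal tubule genes in Sham CD11cloMϕ (6991 CPM against 144 and 142) and in Sham KRM (2628 CPM against 385 to 490). KRM RAS replicates 2 and 3 held 5299 and 3978 CPM of 9 genes of other tubule segments against 140 in replicate 1. KRM RAS replicate 1 held 394 CPM of 9 T and NK cell genes against 57.2 and 60.1. CD11cloMϕ RAS replicate 3 held 8829 CPM of the macrophage genes against 4738 to 5784 in the other libraries of its group, 203 CPM of Cadm1 against 10.3 to 46.7, and the lowest sum of 8 monocyte genes (3325.5 CPM against 6955 to 9574). CD11chiMϕ RAS replicates 3 and 4 were much closer to each other than other pairs of the group but differed by more than counting error, and both were kept; the labels list more RAS libraries of CD11chiMϕ and CD11cloMϕ (4 each) than the study's methods do. Whether these 2 libraries came from separate cell pools is not given; if they did not, the SDs and p-values of RAS CD11chiMϕ, which count 4 samples, rest on fewer independent ones. In the log2 table, used for an alternative only, the column of KRM RAS replicate 1 correlated with that library's counts at r = 0.689, while these counts correlated with the column of KRM Sham replicate 4 at r = 0.888. The counts of KRM Sham replicate 4 correlated best with their own column (r = 0.934). Those of KRM Sham replicate 1 correlated best with the column of Sham replicate 2 (0.9455 against 0.9364 with their own). Those of KRM RAS replicate 2 correlated best with the column of RAS replicate 3 (0.9114 against 0.9108). Why the column of KRM RAS replicate 1 differs was not tested.

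The level of each member, as CPM scaled by trimmed mean of M values (TMM), is shown per library in the plot of the 8 genes. Compared per length of exon sequence, the level of Cd209a led in CD11chiMϕ at 497 CPM per kilobase in Sham and 1648 in RAS, far above Dpp4, the next in Sham CD11chiMϕ at 20.2. In Sham CD11cloMϕ the per-kilobase level of Cd209a (35.5) was again the highest, before Batf3 (10.7). The order in Sham KRM was another: Batf3 (19.5 CPM per kilobase), Dpp4 (14.9) and Clec9a (9.33) stood before Cd209a (8.61), and Itgae was lowest at 0.235. In RAS KRM, Cd209a led again at 38.2 CPM per kilobase, before Dpp4 at 12.8.

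**Figure D1:**
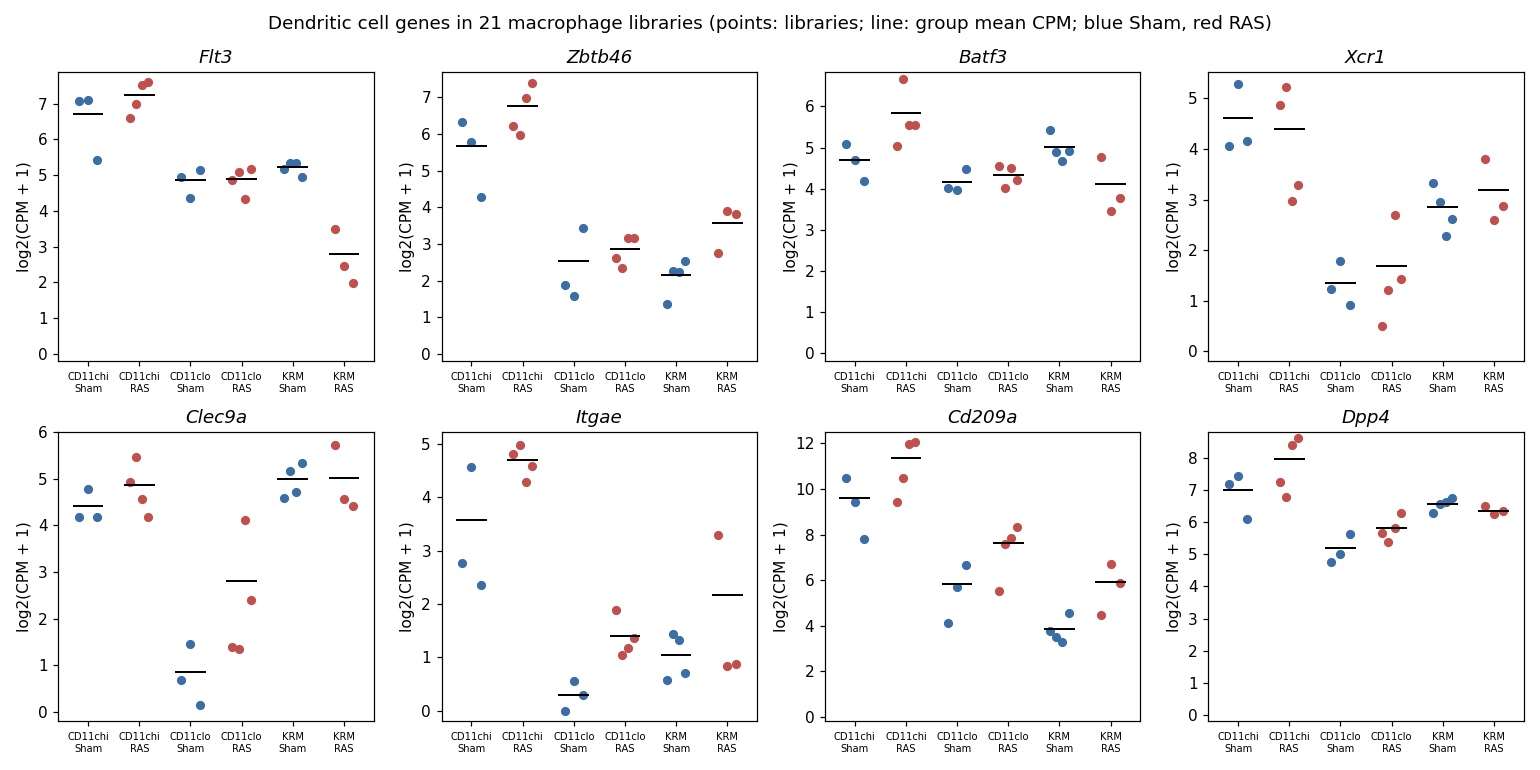
Level of each gene in the 21 libraries as log2(CPM + 1), with 1 panel per gene and the 6 groups along the x axis; points are libraries (blue Sham, red RAS) and the black line is the group's mean CPM on the same scale. Flt3, Zbtb46, Batf3, Itgae, Cd209a and Dpp4 were on average highest in CD11chiMϕ of RAS kidneys. Clec9a had similar levels in CD11chiMϕ and KRM, and Flt3 was lowest in KRM of RAS kidneys (2.94 to 10.2 CPM).

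In Sham kidneys, KRM held less Zbtb46, Itgae, Xcr1 and Cd209a than CD11chiMϕ: 4 of the 8 members passed edgeR's quasi-likelihood test after Benjamini-Hochberg adjustment over all genes, all lower in KRM, where 5.12% of all 12404 genes tested passed (4.12% lower). The median log2 fold change was -1.76 over the members and -0.07 over all genes. The count was 6 without CD11chiMϕ Sham replicate 3 (1717 genes in all), and 1 or 2 without any other library (155 to 897 genes): Cd209a passed each time and Zbtb46 in 6 of 7 cases. With the replicate number as a block only Cd209a passed (adjusted p = 0.0398). Against CD11cloMϕ, KRM held more Clec9a, Dpp4, Xcr1 and Batf3 and less Cd209a (4 higher and 1 lower of 7 members tested, with 41.8% of all genes passing, 19.5% higher and 22.3% lower; Itgae was below the filter on low counts). In the same comparison 8 of 8 monocyte genes (median log2 fold change -6.86) and 4 of 4 tested neutrophil genes (-7.04) were lower in KRM and 8 of 8 macrophage genes were higher. Against CD11chiMϕ, KRM were lower in 5 of 8 monocyte and 2 of 4 neutrophil genes. With the replicate block these were 2 and 0, and with single libraries left out 2 to 7 and 0 to 3. The part of monocytes and neutrophils in the members' differences was not tested. Between CD11chiMϕ and CD11cloMϕ only Xcr1 passed, and it was higher in CD11chiMϕ (background 1.52%, or 0.917% higher). Over the whole table the calls rested on single libraries: 704 genes and 7 members, all higher in CD11chiMϕ, passed without CD11chiMϕ Sham replicate 3, and 0 genes passed when any other library of these groups was left out, with 1280 to 2035 at an unadjusted p under 0.05. With the replicate block 3 passed, Xcr1, Clec9a and Itgae. Without replicate 3 of every group, 6 members passed for KRM against CD11chiMϕ (1493 genes in all), 5 for KRM against CD11cloMϕ (5792 genes) and 8 for CD11chiMϕ against CD11cloMϕ (1897 genes).

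In RAS kidneys, 7 of the 8 members were higher in CD11chiMϕ than in CD11cloMϕ, all but Clec9a, where 8.27% of all genes passed (5.15% higher). The members' median log2 fold change was 2.77 and that of all genes 0.01. Flt3, Zbtb46 and Itgae passed with each library left out in turn, whereas the count was 3 without CD11chiMϕ RAS replicate 3 or 4 or CD11cloMϕ RAS replicate 2 (256, 273 and 305 genes in all, of 1018), and 8 without CD11cloMϕ RAS replicate 3 (1024 genes). Without replicate 3 of both groups 5 members passed: Cd209a, Dpp4 and Batf3 no longer did (adjusted p = 0.0794, 0.0838 and 0.0897), and Clec9a did (adjusted p = 0.0247). Of 7 T and NK cell genes tested, 5 were also higher in CD11chiMϕ (median log2 fold change 2.60), or 0 to 5 with single libraries left out. Itgae and Dpp4 are used by T and NK cells, whose part in their difference was not tested. Lower in CD11chiMϕ were 4 of 8 monocyte and 3 of 4 tested neutrophil genes (2 to 6 and 0 to 4 with single libraries left out). KRM held less Flt3, Zbtb46 and Cd209a than CD11chiMϕ (3 of 8 members, background 9.23%, or 5.07% lower) and less Flt3 than CD11cloMϕ (1 of 8, background 9.17%, or 5.89% lower). RAS KRM were also higher than CD11chiMϕ in 4 of 9 genes of other tubule segments and 2 of 11 proximal tubule genes. They were higher than CD11cloMϕ in 3 of 9, 3 of 11 and 2 of 9 T and NK cell genes. With single libraries left out these counts were 0 to 9 and 0 to 2 against CD11chiMϕ. Against CD11cloMϕ they were 0 to 7, 0 to 4 and 0 to 2. RAS KRM were lower than CD11cloMϕ in 8 of 8 monocyte genes (median log2 fold change -5.36) and 4 of 4 tested neutrophil genes (-8.50). They were lower than CD11chiMϕ in 1 of 8 monocyte genes. With single libraries left out these counts were 0 to 8, 0 to 4 and 1 to 2. The part of such cell types in the KRM differences was not tested. The counts of members in these KRM comparisons depended on single libraries, as did those of all genes. Against CD11chiMϕ, 5 members passed without KRM RAS replicate 1 or CD11chiMϕ RAS replicate 1 (2788 and 2289 genes in all), 1 without KRM RAS replicate 3 or CD11chiMϕ RAS replicate 3 or 4 (24, 46 and 50 genes), and 0 without KRM RAS replicate 2 (14 genes). Against CD11cloMϕ, 3 members passed without CD11cloMϕ RAS replicate 3 (Flt3 lower, Xcr1 and Clec9a higher in KRM; 2111 genes in all), 1 without KRM RAS replicate 1 (3239 genes) and 0 without any of the other libraries (0 to 541 genes; the 0 was without KRM RAS replicate 2 or 3, with 2853 and 2862 genes at an unadjusted p under 0.05).

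**Figure D2:**
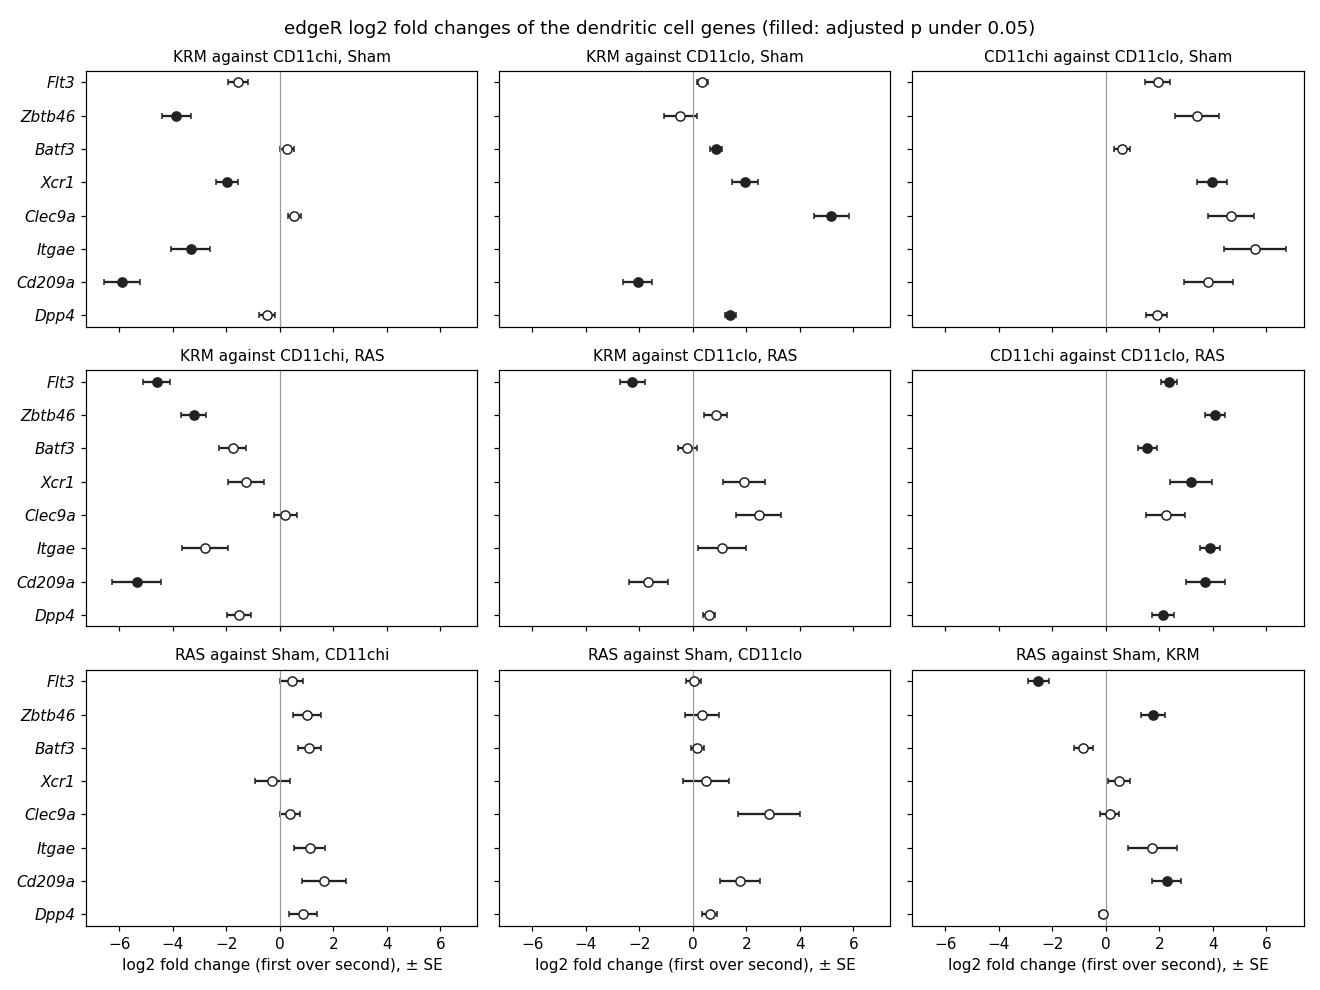
edgeR log2 fold change with its standard error (x axis) of each gene (y axis) in 9 comparisons, first group over second; filled points passed an adjusted p of 0.05 and open points did not. In RAS kidneys, 7 of 8 points are filled and above 0 for CD11chiMϕ against CD11cloMϕ, and in KRM only Flt3 lies far below 0 for RAS against Sham.

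Flt3 is the receptor for Flt3 ligand, the growth factor of dendritic cell precursors. In CD11chiMϕ it was at 134, 136 and 41.6 CPM in Sham and at 95.2, 125, 181 and 194 CPM in RAS. In CD11cloMϕ the levels were 29.9, 19.6 and 34.2 CPM in Sham and 28.3, 33.2, 19.0 and 35.2 CPM in RAS. KRM held 35.0, 39.8, 39.6 and 29.9 CPM in Sham but 10.2, 4.52 and 2.94 CPM in RAS. Sham KRM overlapped with CD11cloMϕ and lay below every CD11chiMϕ library, and RAS KRM lay below every other library. In Sham, the log2 fold change of KRM against CD11chiMϕ was -1.55 (SE 0.370, adjusted p = 0.0591) and that against CD11cloMϕ 0.36 (SE 0.209, adjusted p = 0.210). In RAS, KRM were lower than CD11chiMϕ by -4.61 (SE 0.509, adjusted p = 0.00700) and than CD11cloMϕ by -2.27 (SE 0.466, adjusted p = 0.0348) on the log2 scale. CD11chiMϕ exceeded CD11cloMϕ in RAS by 2.36 (SE 0.289, adjusted p = 0.00360), and this held with each of the 8 libraries left out; in Sham the difference was 1.94 (adjusted p = 0.104), or 2.27 (adjusted p = 0.0103) without CD11chiMϕ Sham replicate 3.

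Zbtb46, a repressor that marks the conventional dendritic cell lineage, separated CD11chiMϕ from the other populations. Its CPM in CD11chiMϕ were 78.9, 54.0 and 18.4 in Sham and 73.8, 62.2, 127 and 167 in RAS. In CD11cloMϕ it was at 2.69, 1.97 and 9.84 CPM in Sham and 5.15, 4.06, 8.03 and 7.91 CPM in RAS. KRM had 1.57, 3.81, 3.74 and 4.81 CPM in Sham and 5.80, 13.8 and 13.1 CPM in RAS. Every CD11chiMϕ library was above every library of both other populations. The log2 fold change of KRM against CD11chiMϕ was -3.88 (SE 0.540, adjusted p = 0.0120) in Sham and -3.22 (SE 0.478, adjusted p = 0.0190) in RAS, and that of CD11chiMϕ against CD11cloMϕ was 4.08 (SE 0.388, adjusted p = 0.00138) in RAS and 3.41 (SE 0.806, adjusted p = 0.104) in Sham. With the replicate block, the Sham difference between KRM and CD11chiMϕ had an adjusted p of 0.0923.

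Batf3, a transcription factor required for cDC1 development, was measured in every library, at 9.92 to 102 CPM. Its CPM ran from 17.2 to 32.9 in Sham CD11chiMϕ, from 14.7 to 21.1 in Sham CD11cloMϕ and from 24.6 to 42.4 in Sham KRM. KRM and CD11chiMϕ overlapped in Sham (log2 fold change 0.27, SE 0.263, adjusted p = 0.526), and KRM were higher than CD11cloMϕ by 0.85 (SE 0.227, adjusted p = 0.0174). In RAS the CPM ran from 32.0 to 102 in CD11chiMϕ, the highest value belonging to replicate 2, from 15.3 to 22.4 in CD11cloMϕ and from 9.92 to 26.2 in KRM. CD11chiMϕ were then above CD11cloMϕ by 1.55 (SE 0.355, adjusted p = 0.0294), and KRM were at -1.76 against CD11chiMϕ (SE 0.504, adjusted p = 0.0629).

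Xcr1, the receptor for the chemokine Xcl1 and a defining cDC1 surface protein, was at 15.6, 38.1 and 16.8 CPM in Sham CD11chiMϕ and at 28.3, 36.7, 6.86 and 8.75 CPM in RAS CD11chiMϕ. CD11cloMϕ held 1.34, 2.44 and 0.885 CPM in Sham and 0.412, 1.31, 5.43 and 1.70 CPM in RAS. KRM were at 9.03, 6.78, 3.84 and 5.13 CPM in Sham and 12.98, 5.05 and 6.33 CPM in RAS. In Sham the ranges of the 3 populations did not overlap. KRM were lower than CD11chiMϕ by -1.97 on the log2 scale (SE 0.406, adjusted p = 0.0383, or 0.144 with the replicate block) and higher than CD11cloMϕ by 1.95 (SE 0.488, adjusted p = 0.0131). CD11chiMϕ were higher than CD11cloMϕ by 3.98 in Sham (SE 0.570, adjusted p = 0.0374) and by 3.19 in RAS (SE 0.800, adjusted p = 0.0405).

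Clec9a, a lectin with which cDC1 bind the actin of dead cells, set CD11cloMϕ apart from both other populations. Its CPM were 17.2, 26.6 and 17.1 in Sham and 29.4, 43.0, 22.6 and 17.3 in RAS CD11chiMϕ, and 23.2, 35.0, 25.1 and 39.5 in Sham and 51.8, 22.6 and 20.5 in RAS KRM. CD11cloMϕ held 0.621, 1.74 and 0.111 CPM in Sham and 1.65, 1.55, 16.4 and 4.26 CPM in RAS. Every KRM and CD11chiMϕ library was above every CD11cloMϕ library. Among Sham libraries KRM exceeded CD11cloMϕ by 5.18 on the log2 scale (SE 0.644, adjusted p = 0.000425), with CD11cloMϕ at 0.824 ± 0.833 CPM (SD, n = 3). In RAS the difference between KRM and CD11cloMϕ did not pass, although it did in 1 of 7 fits with a library left out. The log2 fold change of CD11chiMϕ against CD11cloMϕ was 4.69 in Sham (SE 0.854, adjusted p = 0.0600, or 0.0128 with the replicate block) and 2.23 in RAS (SE 0.716, adjusted p = 0.0834, or 0.00799 without CD11cloMϕ RAS replicate 3, the library at 16.4 CPM, which also stood apart in its macrophage and monocyte sums). KRM against CD11chiMϕ gave 0.55 in Sham (SE 0.256, adjusted p = 0.235), with overlapping ranges. Clec9a exons share 184 bases with those of Clec1b, on the same strand, which was at 0.412 to 5.96 CPM.

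Itgae encodes the integrin αE (CD103), which with β7 binds E-cadherin. It was at 5.80, 22.7 and 4.15 CPM in Sham and 27.1, 30.3, 18.6 and 23.0 CPM in RAS CD11chiMϕ, whereas the 14 other libraries lay between 0 and 8.85 CPM. The highest of these 14 was KRM RAS replicate 1, the KRM library with the highest T and NK cell sum; the part of those cells in its Itgae level was not tested. The log2 fold change of KRM against CD11chiMϕ was -3.33 in Sham (SE 0.725, adjusted p = 0.0455, or 0.127 with the replicate block) and -2.80 in RAS (SE 0.846, adjusted p = 0.0729). In RAS, CD11chiMϕ exceeded CD11cloMϕ by 3.89 (SE 0.363, adjusted p = 0.00138). In Sham that difference was 5.56 (SE 1.16, adjusted p = 0.0819, or 0.0167 with the replicate block), and CD11cloMϕ Sham replicate 1 held no Itgae count. The gene Gsg2 lies within the span of Itgae on the opposite strand without sharing exon sequence, and it was at 1.51 to 9.73 CPM.

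Cd209a, a mouse relative of the pathogen lectin DC-SIGN, reached the highest level of the 8 genes and ran from 8.78 to 4265 CPM. In CD11chiMϕ it reached 1438, 696 and 224 CPM in Sham and 694, 1438, 4037 and 4265 CPM in RAS. In CD11cloMϕ it was at 16.6, 50.7 and 101 CPM in Sham and 45.6, 193, 230 and 321 CPM in RAS. KRM had 12.6, 10.3, 8.78 and 22.8 CPM in Sham and 20.9, 103 and 57.5 CPM in RAS. CD11chiMϕ did not overlap with either other population within Sham or within RAS. The log2 fold change of KRM against CD11chiMϕ was -5.89 in Sham (SE 0.680, adjusted p = 0.00634) and -5.35 in RAS (SE 0.908, adjusted p = 0.0244). KRM were also below CD11cloMϕ in Sham by -2.06 (SE 0.551, adjusted p = 0.0176), with overlapping ranges. In RAS that difference was -1.66 (SE 0.733, adjusted p = 0.160), which did not pass, and the ranges overlapped too. CD11chiMϕ exceeded CD11cloMϕ by 3.71 in RAS (SE 0.727, adjusted p = 0.0176) and by 3.83 in Sham (SE 0.909, adjusted p = 0.104). Cd209a has near copies with which reads could be shared, so its values are uncertain to that degree. The copies did not all share its pattern. In RAS kidneys, 2 of 6 tested genes of the family were higher in CD11chiMϕ than in CD11cloMϕ, Cd209a itself and Cd209c (54.8 ± 22.9 against 3.64 ± 2.05 CPM, SD, n = 4 each, adjusted p = 0.00626), and 2 were lower, Cd209f and Cd209g. Cd209f was at 1.25 ± 2.42 CPM in CD11chiMϕ and 68.7 ± 69.4 CPM in CD11cloMϕ (SD, n = 4 each) and was lower in CD11chiMϕ (adjusted p = 0.0397). With single libraries left out, 1 to 3 genes of the family were higher in CD11chiMϕ and 0 to 2 lower. With the replicate block 2 were higher and 0 lower.

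Dpp4 (CD26) is a surface peptidase that also cuts chemokines, and the study gated both cDC1 and cDC2 by it. It ran from 67.9 to 171 CPM in Sham and from 109 to 389 CPM in RAS CD11chiMϕ. It ran from 26.0 to 48.8 and from 40.6 to 76.1 CPM in CD11cloMϕ, and from 77.4 to 108 and from 74.5 to 89.2 CPM in KRM, in Sham and RAS respectively. KRM were above CD11cloMϕ in Sham by 1.40 (SE 0.215, adjusted p = 0.00129), with ranges apart. CD11chiMϕ exceeded CD11cloMϕ in RAS by 2.14 (SE 0.412, adjusted p = 0.0170) and in Sham by 1.90 (SE 0.393, adjusted p = 0.0805). Against CD11chiMϕ, KRM were at -0.47 in Sham (SE 0.289, adjusted p = 0.328) and -1.53 in RAS (SE 0.447, adjusted p = 0.0668). Sham replicate 3, in which proximal tubule genes were high in both populations, held the lowest Dpp4 of Sham CD11chiMϕ (67.9 CPM) and the highest of Sham CD11cloMϕ (48.8 CPM); the part of tubule RNA was not tested.

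Between RAS and Sham KRM, 3 of the 8 members differed, 2 higher and 1 lower in RAS, where 9.7% of all 12852 genes tested passed (7.77% higher and 1.94% lower). Flt3 fell from 36.1 ± 4.67 CPM (SD, n = 4) to 5.89 ± 3.83 (SD, n = 3), a log2 fold change of -2.52 (SE 0.402, adjusted p = 0.0210), and the groups did not overlap. Zbtb46 rose from 3.48 ± 1.37 to 10.9 ± 4.44 CPM, by 1.76 (SE 0.447, adjusted p = 0.0489), with ranges apart. Cd209a rose from 13.6 ± 6.33 to 60.4 ± 41.0 CPM, by 2.27 (SE 0.535, adjusted p = 0.0414), with KRM RAS replicate 1 inside the Sham range. The median of the members was 0.32 and that of all genes 0.02. Batf3 was at -0.84 (SE 0.350, adjusted p = 0.137). Itgae, at 8.85, 0.783 and 0.826 CPM in RAS against 0.482 to 1.69 in Sham, had a log2 fold change of 1.74 (SE 0.927, adjusted p = 0.221), which was -0.38 without replicate 1. Xcr1, Clec9a and Dpp4 overlapped between Sham and RAS KRM.

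The plot of KRM libraries sets these genes beside marker lists. Zbtb46 and Cd209a were highest in KRM RAS replicates 2 and 3, which also held 171 and 142 CPM of 6 endothelial genes against 14.6 in replicate 1 and 9.27 to 19.8 in Sham, and in which the summed macrophage genes were at 3890.4 and 4957 CPM against 7377 in replicate 1 and 8114 to 9201 in Sham. Of the lists, 4 of 7 tested genes of other tubule segments, 2 of 4 endothelial genes and 8 of 9 T and NK cell genes rose in RAS KRM, and 2 of 8 macrophage genes fell. With single libraries left out these counts were 0 to 9, 0 to 6, 0 to 8 and 0 to 8. Cd4 also fell; at 97.1 CPM on average it made up most of the T and NK cell sum of Sham KRM. The part of other cells in the changes of Zbtb46 and Cd209a was not tested. Flt3 was also low in replicate 1, at 10.2 CPM against at least 29.9 in Sham, and that library held 14.6 CPM of the endothelial genes, within the Sham range. Its sums for the proximal tubule (1633 CPM) and other tubule segments (140 CPM) were below those of Sham replicate 3 (2628 and 232) and above those of the other Sham libraries (385 to 490 and 13.8 to 14.7), and its T and NK cell sum was above Sham (394 CPM against 79.4 to 109). The part of other cells in the lower Flt3 was not tested either. Without replicate 1, Flt3 was at -3.20 (adjusted p = 8.51e-05), Zbtb46 at 2.01, Cd209a at 2.64 and Batf3 at -1.39 (adjusted p = 0.00285), and all 4 passed. Without KRM RAS replicate 2 or 3, or without KRM Sham replicate 1, 2 or 4, none of the 8 passed, and Flt3 was then between -2.61 and -2.23; without KRM Sham replicate 3 only Flt3 passed (adjusted p = 0.0274). Over all genes the count moved in the same way, from 1247 to 7070 without RAS replicate 1 and to 28 and 32 without RAS replicates 2 and 3.

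**Figure D3:**
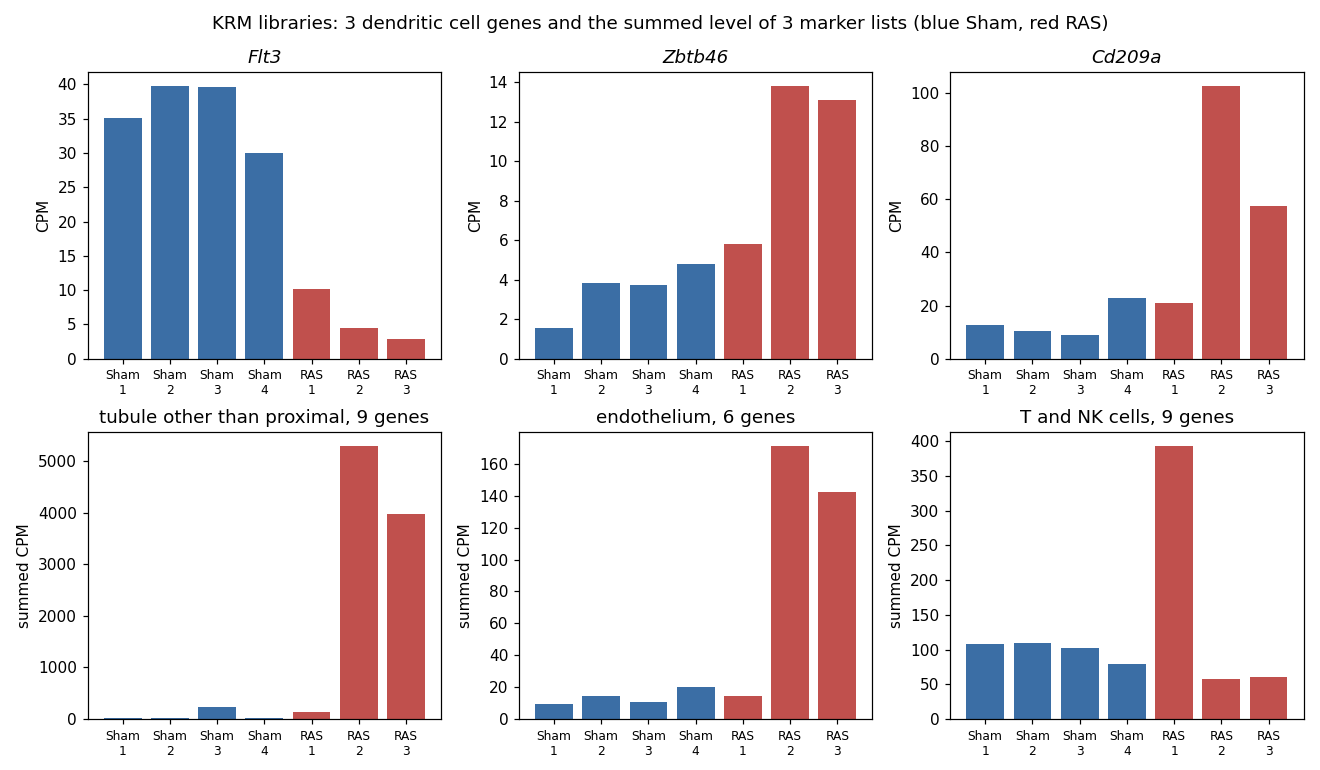
CPM in the 4 Sham and 3 RAS libraries of KRM (x axis) of Flt3, Zbtb46 and Cd209a, and the summed CPM of 9 genes of other tubule segments, 6 endothelial genes and 9 T and NK cell genes (y axes start at 0; bars are single libraries). Flt3 was lower in all 3 RAS libraries, Zbtb46, Cd209a and the tubule and endothelial sums were highest in replicates 2 and 3, and the T and NK cell sum was highest in replicate 1.

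In CD11chiMϕ none of 8 members, and in CD11cloMϕ none of the 7 that were tested, passed the test of RAS against Sham, where 0.0% of all genes passed in either population. edgeR called 0 of 12739 genes in CD11chiMϕ and 0 of 12301 in CD11cloMϕ; at an unadjusted p under 0.05 there were 1247 and 1102 genes, among them 1 and 2 members, and DESeq2 called 190 and 103 genes, none of them a member. In CD11chiMϕ, Cd209a was at 786 ± 612 CPM in Sham (SD, n = 3) and 2608 ± 1809 in RAS (SD, n = 4), a log2 fold change of 1.65 (SE 0.807, adjusted p = 0.515). Zbtb46 was at 1.02 (SE 0.521, adjusted p = 0.526), Itgae at 1.13 (SE 0.578, adjusted p = 0.526) and Batf3 at 1.10 (SE 0.435, adjusted p = 0.508), and all 8 members overlapped between the groups. In CD11cloMϕ, Clec9a was at 2.84 (SE 1.16, adjusted p = 0.553), with 16.4 CPM in RAS replicate 3, and Cd209a was at 1.77 (SE 0.749, adjusted p = 0.553). Itgae was below the filter on low counts there and was not tested; it was at 0 to 0.464 CPM in Sham and 1.07 to 2.68 CPM in RAS CD11cloMϕ, with ranges apart, and without the filter its log2 fold change was 2.78 (SE 1.13, adjusted p = 0.605).

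The spread within RAS CD11chiMϕ had a pattern of its own, shown in the plot of the 7 CD11chiMϕ libraries. Replicates 3 and 4 held the highest Cd209a (4037 and 4265 CPM), Dpp4 (338 and 389 CPM), Flt3 (181 and 194 CPM) and Zbtb46 (127 and 167 CPM), and at the same time the lowest Xcr1 (6.86 and 8.75 CPM) of the population. Replicate 2 held the highest Batf3 (102 CPM), Clec9a (43.0 CPM) and Itgae (30.3 CPM) of the population. The cDC1 genes Xcr1 and Clec9a thus did not follow Cd209a among these libraries. RAS replicates 2 to 4 held 1856 to 2089 CPM of the macrophage list against 4985 in RAS replicate 1, and 3666 to 5662 CPM of 10 genes of mature, migrating dendritic cells (Ccr7, Ccl22, Cd83 and others) against 588 to 760 in RAS replicate 1 and the 3 Sham libraries. RAS replicate 1 held the highest T and NK cell sum of CD11chiMϕ, 275 CPM against 22.0 to 134 in the others. The part of these cells in the members' spread was not tested.

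**Figure D4:**
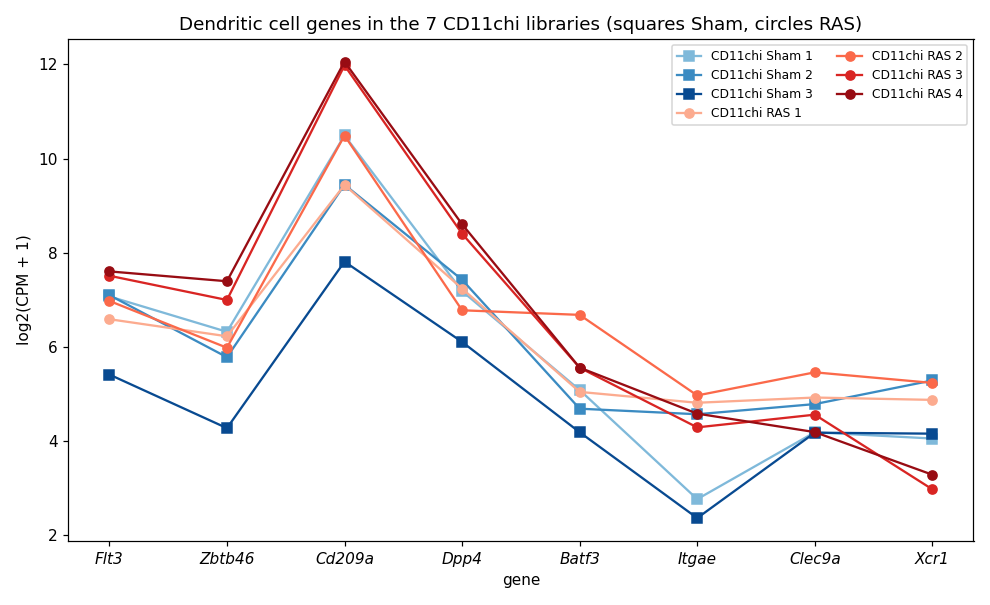
Level of the 8 genes (x axis) in each of the 7 CD11chiMϕ libraries (lines; squares Sham, circles RAS) as log2(CPM + 1) (y axis). RAS replicates 3 and 4 lie highest for Cd209a, Dpp4, Flt3 and Zbtb46 and lowest for Xcr1, and Sham replicate 3 lies low for Flt3, Zbtb46 and Cd209a.

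Whether the response to RAS differed between populations was tested as a difference of log2 fold changes. No member passed, where 0.0% of genes passed for KRM minus CD11chiMϕ, 0.245% for KRM minus CD11cloMϕ and 0.0% for CD11chiMϕ minus CD11cloMϕ; at an unadjusted p under 0.05 there were 2, 4 and 0 members among 2999 of 14137, 3289 of 13877 and 900 of 13540 genes. For KRM minus CD11chiMϕ, the member farthest from 0 was Flt3, at -3.02 (SE 0.637, adjusted p = 0.0980), and its difference was -2.62 for KRM minus CD11cloMϕ (SE 0.511, adjusted p = 0.0529). With single libraries left out, Flt3 passed in 1 of 14 cases for KRM minus CD11chiMϕ and in 2 of 14 for KRM minus CD11cloMϕ. Without KRM RAS replicate 1 the differences were -3.66 (adjusted p = 0.0117) and -3.29 (adjusted p = 0.000860), in fits where the calls over all genes also went from 0 to 1097 and from 34 to 2357. Without KRM RAS replicate 2 they were -2.87 (adjusted p = 0.267) and -2.46 (adjusted p = 0.158), with 0 and 2 genes called. DESeq2 called 1 member and 1380 of 14854 genes in KRM minus CD11cloMϕ, and 2 members and 1231 of 14640 genes in KRM minus CD11chiMϕ.

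The ligands and partners of the members were measured in the same libraries. Xcl1, the ligand of Xcr1 that T and NK cells make, was at 24.6, 5.74 and 3.30 CPM in RAS KRM and at most 0.106 CPM in Sham KRM, and it rose (adjusted p = 0.0160). Cdh1, the epithelial E-cadherin bound by Itgae with Itgb7, was at 8.65, 315 and 246 CPM in RAS KRM against 2.01 to 8.48 CPM in Sham (log2 fold change 5.42, SE 1.10, adjusted p = 0.0307), with the high values in replicates 2 and 3. With single libraries left out, Xcl1 passed in 3 and Cdh1 in 2 of 7 cases, and neither passed with the replicate block. Xcl1 was highest in the KRM library with the highest T and NK cell sum and Cdh1 in those with the highest sums for other tubule segments, whereas their proximal tubule sums (815 and 738 CPM) were below that of replicate 1 (1633 CPM); the part of these cells was not tested. Flt3l, the ligand of Flt3, was at -0.03 (SE 0.315, adjusted p = 0.955), Itgb7 at -1.14 (SE 0.394, adjusted p = 0.0922) and Syk, a kinase used by Clec9a, at -0.56 (SE 0.189, adjusted p = 0.0885). Between populations, Itgb7 was lower in KRM than in CD11cloMϕ in Sham (147 against 670 CPM, adjusted p = 0.000191) and in RAS (62.4 against 399 CPM, adjusted p = 0.0410), and lower than in CD11chiMϕ in RAS (627 CPM, adjusted p = 0.0234). Syk was lower in KRM in the same 3 comparisons (adjusted p = 0.00967, 0.0246 and 0.0481). Xcl1 was higher in RAS KRM and in RAS CD11chiMϕ (11.2 and 9.44 CPM) than in RAS CD11cloMϕ (0.972 CPM; adjusted p = 0.0427 and 0.0286). The Sham calls of Itgb7 and Syk held with each of 7 libraries left out, whereas the RAS calls held in 2 or 3 of 7 cases for these genes, and for Xcl1 in 1 of 7 and 4 of 8. Flt3l and Cdh1 passed in no comparison of populations, and no partner passed for RAS against Sham in CD11chiMϕ or CD11cloMϕ.

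Other genes of dendritic cells were counted from lists. In Sham, KRM were lower than CD11chiMϕ in 7 of 14 tested genes shared by conventional dendritic cells, Btla, Kit and Bcl11a among them. They were also lower in 5 of 15 cDC1 genes (1 was higher), 3 of 12 cDC2 genes (Clec10a, Cd7 and Tnip3) and 7 of 10 genes of mature dendritic cells. Of all genes, 5.12% passed (4.12% lower). With the replicate block these lower counts were 1 of 13, 3 of 15, 1 of 12 and 3 of 10, in a fit that called 105 genes in place of 635, and with single libraries left out they were 3 to 7, 3 to 10, 2 to 5 and 2 to 7. Clec10a, a lectin of cDC2, had a level of 15.4 CPM in KRM against 193 in CD11chiMϕ. Against CD11cloMϕ, KRM were higher in 5 and lower in 5 of 14 cDC1 genes, beside 41.8% of all genes: the adhesion gene Cadm1 was at 648 CPM in Sham KRM and 7.82 CPM in Sham CD11cloMϕ, whereas Cd24a was at 3.95 and 530 CPM (adjusted p = 8.53e-07 and 3.70e-06). KRM were thus above CD11cloMϕ in Cadm1 as in Xcr1 and Clec9a, and below in Cd24a.

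In RAS, CD11chiMϕ were higher than CD11cloMϕ in 9 of 10 mature dendritic cell genes and 6 of 14 shared genes. They were also higher in 4 of 14 cDC1 genes (Snx22, Ly75, Tlr11 and Wdfy4) and 3 of 11 cDC2 genes. Of all genes, 8.27% passed (5.15% higher). With single libraries left out the list counts were 7 to 9, 3 to 9, 2 to 5 and 0 to 6. Ccr7, the receptor that leads dendritic cells to lymph nodes, was at 277 CPM in CD11chiMϕ and 4.78 CPM in CD11cloMϕ (log2 fold change 5.84, SE 0.807, adjusted p = 0.00519). For RAS against Sham KRM, 8 of 10 mature genes rose (median log2 fold change 2.28), with 2 of 12 shared, 3 of 14 cDC1 and 2 of 12 cDC2 genes. Of all genes, 9.7% passed (7.77% higher). With single libraries left out 0 to 9, 0 to 3, 0 to 4 and 0 to 4 list genes rose, and up to 4 shared, 5 cDC1 and 5 cDC2 genes fell. Among these, the receptor Kit (4.52, 82.3 and 68.2 CPM) and Cd24a (14.2, 420 and 299.7 CPM) were highest in RAS replicates 2 and 3, the libraries with high tubule and endothelial sums, whose part was not tested. None of the list genes passed for RAS against Sham in CD11chiMϕ or CD11cloMϕ.

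Across the 21 libraries, which share populations and surgery groups, the members fell into different profiles, given here as a description by Pearson's r of log2 levels. Zbtb46 was most like Cd209a among the members (r = 0.905) and Xcr1 most like Clec9a (r = 0.802), whereas Clec9a was unlike Flt3 (r = 0.109) and Cd209a (r = 0.135). Of 10526 genes, Cd209a was most like Clec10a (r = 0.964), Flt3 was most like Wdfy4 (r = 0.889), a gene of antigen cross-presentation, and Xcr1 was most like Snx22 (r = 0.918). The profile of Itgae was closest to Klrd1 (r = 0.920), a receptor gene of NK and T cells. Zbtb46 was closest to Hr (r = 0.952), Clec9a to Nes (r = 0.946), Batf3 to Plekho1 (r = 0.922) and Dpp4 to Trp53i11 (r = 0.932). Dpp4 shares 232 exon bases with the antisense gene Gm13561, which was at 0 to 5.08 CPM, and strand was not stated for the counting.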

How the data were processed

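RNA was prepared by the authors with a SMART-Seq v4 ultra-low input kit and Nextera XT, sequenced as paired ends, and aligned to mm10 with OSA against Ensembl R83; the submitters' processing notes name mm10 and DESeq2. The deposited count table holds the authors' estimated counts per gene (37620 lines, 21 libraries), which were rounded, and lines with the same symbol were summed. A second deposited table holds log2 values, which the authors scaled as TPM and quantile normalized; it was used for an alternative only. Strand use in the counting is not given in the sources used here.

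CPM were scaled with TMM factors over all 21 libraries. Populations and surgery were compared with edgeR 4.0.16 (R 4.3.3; quasi-likelihood test, TMM, default expression filter, whose lowest count was 10 and lowest total 15, two-sided), fitted on the groups compared, with Benjamini-Hochberg adjustment over all genes tested and a threshold of 0.05; the authors used DESeq2. The SE is the absolute log2 fold change over the root of F. Responses were compared by an interaction term. The scripts were tested on simulated data. Depth was 6891177 to 18592427 counts, with a median of 9357851, so a gene at a few CPM rests on few counts.

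Alternatives were median-of-ratios factors, total library size, no filter, 1 fit over 6 groups, a replicate block, limma 3.58.1 with the log2 table, DESeq2 1.42.0 and leaving out libraries. Replicate numbers served as the block, although the labels do not say that same-numbered libraries came from the same mice. In Sham, the deviations of same-numbered libraries correlated over genes (r from 0.201 to 0.647). However, CD11chiMϕ replicates 1 and 2 correlated at 0.349 and 0.385 with the same CD11cloMϕ number but at 0.482 and 0.457 with another. These values therefore do not show that the numbers pair the Sham samples. Blocked values stand beside Sham results where the call of a member changed.

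All 8 members were followed in every comparison, except that Itgae was below the expression filter for CD11cloMϕ against KRM in Sham and for RAS against Sham in CD11cloMϕ. From the other lists, counts are given, and by name up to 4 genes per comparison with the largest log2 fold change among those that passed without overlap; of the ligands and partners, each one that passed is given, and per-library values of single list genes were chosen after their values were seen. For likeness, the gene with the highest r was named among genes with a mean of at least 5 CPM (log2 CPM, prior count 2). The members, lists and tests were chosen with earlier results of these data known.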

Additional observations from a re-analysis of the deposited data

How the results depend on the processing

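For the log2 fold changes of members that passed or that the text gives, 664 values under the alternatives kept their direction and side of the threshold, 69 passed in addition, 104 no longer passed and 2 changed sign. Both of these were of Itgae for RAS against Sham in KRM, which was between -0.38 and 2.18 with single libraries left out and -0.46 with limma on the log2 table without KRM RAS replicate 1, an alternative chosen after seeing the data because of that column's low match with the counts. Over all 94 pairs of a member and a comparison, 19 changed sign with some library left out, and none of these 19 passed the test in any such fit.

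The number of members that passed moved as follows; the cause was not tested. For KRM against CD11chiMϕ in Sham, 4 became 2 with no filter, 1 with the replicate block, 2 with limma and 1 to 6 with single libraries left out. For KRM against CD11cloMϕ in Sham, 5 became 2 in 1 fit over 6 groups, 3 with limma and 4 to 5 with libraries left out. For CD11chiMϕ against CD11cloMϕ in Sham, 1 became 7 in the fit over 6 groups and with DESeq2, 3 with the block, 8 without replicate 3 of every group, 0 with limma and 0 to 7 with libraries left out. For KRM against CD11chiMϕ in RAS, 3 became 6 in the fit over 6 groups and with DESeq2, 0 without replicate 3 of every group, 5 with limma without KRM RAS replicate 1 and 0 to 5 with libraries left out. For KRM against CD11cloMϕ in RAS, 1 became 2 with total library size, in the fit over 6 groups, with DESeq2 and with limma without KRM RAS replicate 1, 0 without replicate 3 of every group and 0 to 3 with libraries left out. For CD11chiMϕ against CD11cloMϕ in RAS, 7 became 3 to 8 with libraries left out; it was 5 with the block, where Xcr1 and Batf3 no longer passed, and 5 without replicate 3 of every group, where Cd209a, Dpp4 and Batf3 no longer passed and Clec9a did. For RAS against Sham in KRM, 3 became 1 in the fit over 6 groups, 0 with the block or without replicate 3 of every group, 5 with limma without KRM RAS replicate 1 and 0 to 4 with libraries left out. For the response of KRM minus CD11chiMϕ, 0 became 1 in the fit over 6 groups, 2 with DESeq2, 1 with limma, 2 with limma without KRM RAS replicate 1 and 0 to 2 with libraries left out. For KRM minus CD11cloMϕ, 0 became 1 with median-of-ratios factors, no filter or DESeq2, 2 with limma, 3 with limma without KRM RAS replicate 1 and 0 to 2 with libraries left out. The counts for RAS against Sham in CD11chiMϕ and CD11cloMϕ and for their response difference stayed at 0 under these alternatives.

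Over all genes, RAS against Sham in KRM gave 1247 calls, 43 with the block, 4043 with DESeq2, 2599 with limma and 7354 with limma without KRM RAS replicate 1. Same-numbered RAS populations correlated at r from 0.0535 to 0.505. KRM replicate 1 correlated most with its own CD11cloMϕ number (0.505 against -0.0719), and KRM replicate 2 with another CD11chiMϕ number (0.255 against 0.0535). For RAS with Sham, r ran from -0.196 to 0.325. As in Sham, these values do not show that the numbers pair the samples, so the block is a shared number only. It left 3, 1 and 5 members in the RAS comparisons of KRM with CD11chiMϕ, KRM with CD11cloMϕ and CD11chiMϕ with CD11cloMϕ. Depth limits Itgae in CD11cloMϕ and KRM, where most libraries held under 2 CPM.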
